A study of Mus musculus with 8 samples.

Results

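The Iroquois genes Irx1 to Irx6 were followed in hearts that carry a mutated Tbx20. They were found by symbol and Ensembl identifier in the count tables, and all 6 were present among the 49315 genes listed and passed the filter on low counts that left 17163 genes for testing. Messenger RNA was sequenced from whole mouse hearts taken at embryonic day (E) 9.5, with 4 libraries from wild-type and 4 from Tbx20EH1Mut embryos, each made from 3 pooled hearts. Tbx20EH1Mut embryos are homozygous for a germline substitution, made by CRISPR/Cas9 and passed on through matings with C57BL/6J females, that replaces neighbouring phenylalanine and serine residues of the Tbx20 EH1 domain with leucine and isoleucine. This domain binds the corepressors of the TLE family. The substitution is present in every cell of the embryo, not in the heart alone. In bulk libraries, fewer cells of a type and less RNA per cell cannot be told apart.

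Iroquois proteins are transcription factors with a TALE homeodomain, a homeodomain with extra residues in its first loop, and most are known as repressors that set boundaries in the nervous system, limb and heart. In mammals the genes lie in a pair of clusters that arose by duplication. Irx1, Irx2 and Irx4 make up the IrxA cluster, here on chromosome 13, and Irx3, Irx5 and Irx6 the IrxB cluster, here on chromosome 8. In the heart, Irx4 marks ventricular myocardium, Irx3 and Irx5 pattern the conduction system and the gradient of repolarization across the ventricular wall, and Irx1 and Irx2 are found in the ventricular septum.

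In build GRCm38, IrxA spans chr13:71957921-73269608 and IrxB spans chr8:91798525-92680956, measured from the first to the last base of their 3 genes. Irx1 (ENSMUSG00000060969) lies on the minus strand at chr13:71957921-71963723. Irx2 (ENSMUSG00000001504) follows on the plus strand at chr13:72628820-72634198, and Irx4 (ENSMUSG00000021604) on the plus strand at chr13:73260479-73269608. Irx3 (ENSMUSG00000031734) lies on the minus strand at chr8:91798525-91802067. Irx5 (ENSMUSG00000031737) is on the plus strand at chr8:92357625-92376286 and Irx6 (ENSMUSG00000031738) on the plus strand at chr8:92674288-92680956. Neighbouring members of a cluster are therefore far apart, with 665 kb between the starts of Irx1 and Irx2 and 317 kb between those of Irx5 and Irx6.

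The members are near copies of each other in the homeobox, which bears on how reads are assigned to them. The stretch of 120 coding bases that encodes the latter part of the homeodomain is printed here for each gene, 5′ to 3′ on the coding strand and from the GENCODE M21 transcripts. Capitals mark the 105 bases that are the same in all 6 genes.
Irx1: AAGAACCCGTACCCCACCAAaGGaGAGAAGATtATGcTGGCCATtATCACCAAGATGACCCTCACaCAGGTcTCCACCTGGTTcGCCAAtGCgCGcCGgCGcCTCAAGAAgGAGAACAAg
Irx2: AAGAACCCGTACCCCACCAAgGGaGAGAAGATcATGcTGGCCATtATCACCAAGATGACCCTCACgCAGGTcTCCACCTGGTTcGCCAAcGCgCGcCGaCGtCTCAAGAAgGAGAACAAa
Irx4: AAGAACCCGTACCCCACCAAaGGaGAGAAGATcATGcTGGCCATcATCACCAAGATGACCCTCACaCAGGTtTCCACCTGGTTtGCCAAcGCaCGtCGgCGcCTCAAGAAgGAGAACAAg
Irx3: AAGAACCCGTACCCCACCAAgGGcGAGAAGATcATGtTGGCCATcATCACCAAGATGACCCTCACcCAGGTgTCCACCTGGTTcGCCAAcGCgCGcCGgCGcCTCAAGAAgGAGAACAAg
Irx5: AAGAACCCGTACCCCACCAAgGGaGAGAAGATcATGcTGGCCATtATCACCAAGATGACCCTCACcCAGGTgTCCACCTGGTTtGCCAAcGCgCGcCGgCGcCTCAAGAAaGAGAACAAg
Irx6: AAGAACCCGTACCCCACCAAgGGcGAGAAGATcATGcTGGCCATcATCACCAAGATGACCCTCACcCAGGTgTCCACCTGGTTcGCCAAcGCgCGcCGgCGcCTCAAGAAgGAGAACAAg

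These stretches lie in a single exon of each gene, at chr13:71959992-71960111 in exon 2 of Irx1, chr13:72630733-72630852 in exon 2 of Irx2 and chr13:73267592-73267711 in exon 5 of the Irx4-201 transcript. In IrxB they lie at chr8:91800496-91800615 in exon 2 of Irx3, chr8:92359696-92359815 in exon 2 of Irx5 and chr8:92677305-92677424 in exon 4 of Irx6. Of the 15 positions that differ, 14 are at the last base of a codon. Irx3 and Irx6 were the closest pair, with 119 of the 120 bases the same, and Irx2 and Irx4 the least close, with 110. Over whole transcripts, the longest run of bases without a difference was 88 between Irx3 and Irx6, 65 between Irx2 and Irx5 and at most 50 for any other pair. The sequenced reads are longer than these runs and came in pairs, but how reads that fit more than 1 gene were counted is not given in the sources used here.

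Reads counted on genes numbered 33359322 to 49523086 in wild-type libraries and 36250675 to 38357025 in Tbx20EH1Mut libraries. Levels are given as CPM, that is, counts relative to the library size after scaling by the TMM method. Each Irx gene other than Irx6 had at least 815 counts in every library, and Irx6 had between 146 and 418. Tbx20 itself was 1.38-fold lower in Tbx20EH1Mut libraries (log2 fold change -0.46, adjusted p = 0.0273), a call that was lost in 6 of 17 other fits. These left out wild-type replicate 3 or 4 or Tbx20EH1Mut replicate 1 or 2 (adjusted p at most 0.0726), used upper-quartile scaling (0.0608) or added foregut markers as a covariate (0.175). The substituted codons cannot be seen in counts of whole genes.

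Of the 6 Irx genes, 4 differed between the genotypes at an adjusted p of at most 0.05, compared with 29.3% of all genes tested. The same 4 passed with a log2 fold change threshold of 0.5, as did 24.6% of all genes. With the stricter threshold of 1, which the study also used, 3 passed, without Irx4, as did 10.8% of all genes. Of the 6 Irx genes, 4 had no overlap between the genotypes, which held for 30.5% of all genes tested. The called genes of the clusters differed in direction. Every IrxB gene was higher in Tbx20EH1Mut hearts, 3 genes against a background of 14.0% of genes called higher, and Irx4 was lower, against a background of 15.3% called lower. Irx1 and Irx2 did not pass the test. The counts behind these backgrounds were 2406 genes higher and 2618 lower, and upper-quartile scaling moved them to 2859 and 1997.

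**Figure D1:**
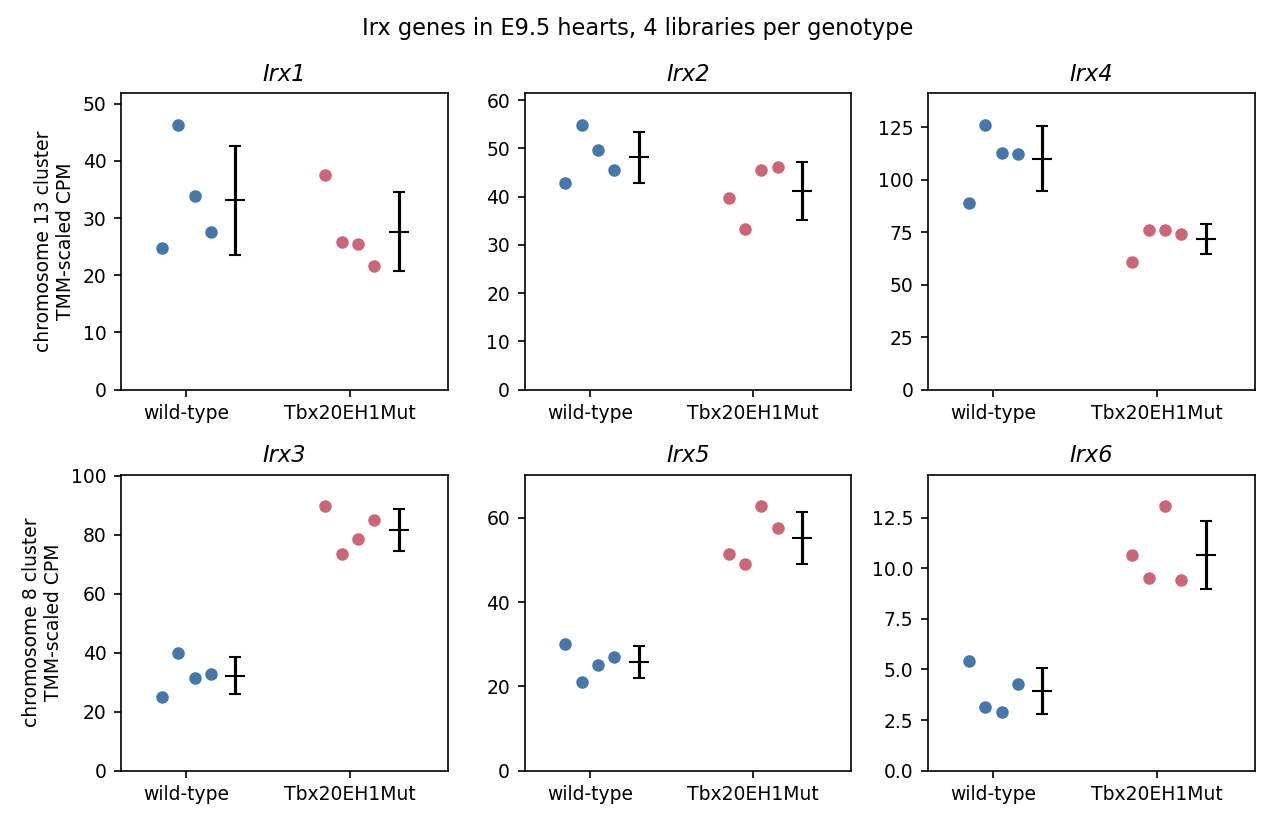
TMM-scaled CPM of each Irx gene (vertical axes, from 0) in 4 wild-type and 4 Tbx20EH1Mut libraries (points, left to right replicates 1 to 4), with the mean and SD beside them as a dash and bar. The genotypes do not overlap for Irx3, Irx5 and Irx6, which are higher in Tbx20EH1Mut libraries, nor for Irx4, which is lower, and they overlap for Irx1 and Irx2.

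Irx3 helps to set fast conduction in the ventricular conduction system. Wild-type replicates 1 to 4 held 25.0, 39.9, 31.4 and 32.8 CPM. In Tbx20EH1Mut replicates 1 to 4 it was 89.6, 73.3, 78.4 and 85.1 CPM. Every mutant library lay above every wild-type library, and the lowest mutant value was well clear of the highest wild-type value. Means were 32.3 ± 6.11 and 81.6 ± 7.20 CPM (mean ± SD, n = 4 in this and all later values), a 2.53-fold rise. On the log2 scale Irx3 rose by 1.34, with a standard error of 0.145 and a 95% interval of 1.02 to 1.66, and passed edgeR's quasi-likelihood test at an adjusted p of 3.0e-04 (Benjamini-Hochberg). An exact two-sided permutation test gave p = 0.0286, the lowest p possible with 4 libraries in each of 2 groups, and gave the same for Irx4, Irx5 and Irx6.

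Irx5, known for repressing the potassium channel gene Kcnd2 on the inner side of the ventricular wall, was measured at 30.0, 20.9, 25.0 and 26.9 CPM in the wild-type libraries. The Tbx20EH1Mut libraries had 51.4, 48.9, 62.7 and 57.6 CPM. Here too the genotypes did not overlap. Mean Irx5 rose 2.15-fold, from 25.7 ± 3.78 to 55.2 ± 6.23 CPM, or by 1.10 on the log2 scale with a 95% interval of 0.80 to 1.41 (standard error 0.136, adjusted p = 5.7e-04).

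Irx6, the least studied member, was also the scarcest. Wild-type libraries held 5.40, 3.14, 2.91 and 4.30 CPM, and Tbx20EH1Mut libraries 10.6, 9.51, 13.1 and 9.41 CPM. The lowest mutant library stood above the highest wild-type library, replicate 1. Irx6 rose 2.71-fold, from 3.94 ± 1.15 to 10.7 ± 1.70 CPM, which is 1.44 on the log2 scale with a 95% interval of 0.93 to 1.95 (standard error 0.228, adjusted p = 0.0020). The 95% intervals of the 3 IrxB genes overlapped, and a difference between their fold changes was not tested.

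Irx4 is a ventricle-restricted factor that favours ventricular over atrial genes. It had the highest count of the family in wild-type hearts, with 88.9, 125.9, 112.8 and 112.1 CPM. In Tbx20EH1Mut hearts it was 60.9, 76.1, 76.0 and 74.0 CPM. All 4 mutant libraries were below all wild-type libraries, mutant replicate 1 being the lowest. Irx4 fell 1.53-fold, from 109.9 ± 15.3 to 71.8 ± 7.28 CPM, and this log2 fold change of -0.62 had a 95% interval of -0.90 to -0.33 (standard error 0.130, adjusted p = 0.0076).

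Irx1 was the most variable member between wild-type replicates, apart from Irx6, with 24.8, 46.2, 33.8 and 27.6 CPM. Tbx20EH1Mut libraries had 37.6, 25.8, 25.5 and 21.6 CPM. The genotypes overlapped, with wild-type replicate 2 and mutant replicate 1 the highest of their groups. Means were 33.1 ± 9.53 and 27.6 ± 6.90 CPM, and the log2 fold change was -0.26 with a 95% interval of -0.76 to 0.23 (adjusted p = 0.39). It was -0.05 without wild-type replicate 2. Adding the mean log2 level of foregut epithelium markers to the model moved it to -0.73 with an adjusted p of 0.042. This was the only one of 17 other fits in which Irx1 passed.

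Irx2, which is expressed with Irx1 in the septum, was at 42.8, 54.8, 49.6 and 45.5 CPM in wild-type libraries. The mutant libraries had 39.7, 33.3, 45.4 and 46.1 CPM. They overlapped, mutant replicates 3 and 4 lying among the wild-type values and replicates 1 and 2 below them. Mean Irx2 was 48.2 ± 5.23 and 41.1 ± 5.99 CPM. Its change of -0.23 on the log2 scale had a 95% interval of -0.52 to 0.07 (adjusted p = 0.21), and it did not pass in any of the 17 other fits. These intervals for Irx1 and Irx2 include no change and also include falls as large as the one measured for Irx4 (Irx1) or nearly so (Irx2).

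**Figure D2:**
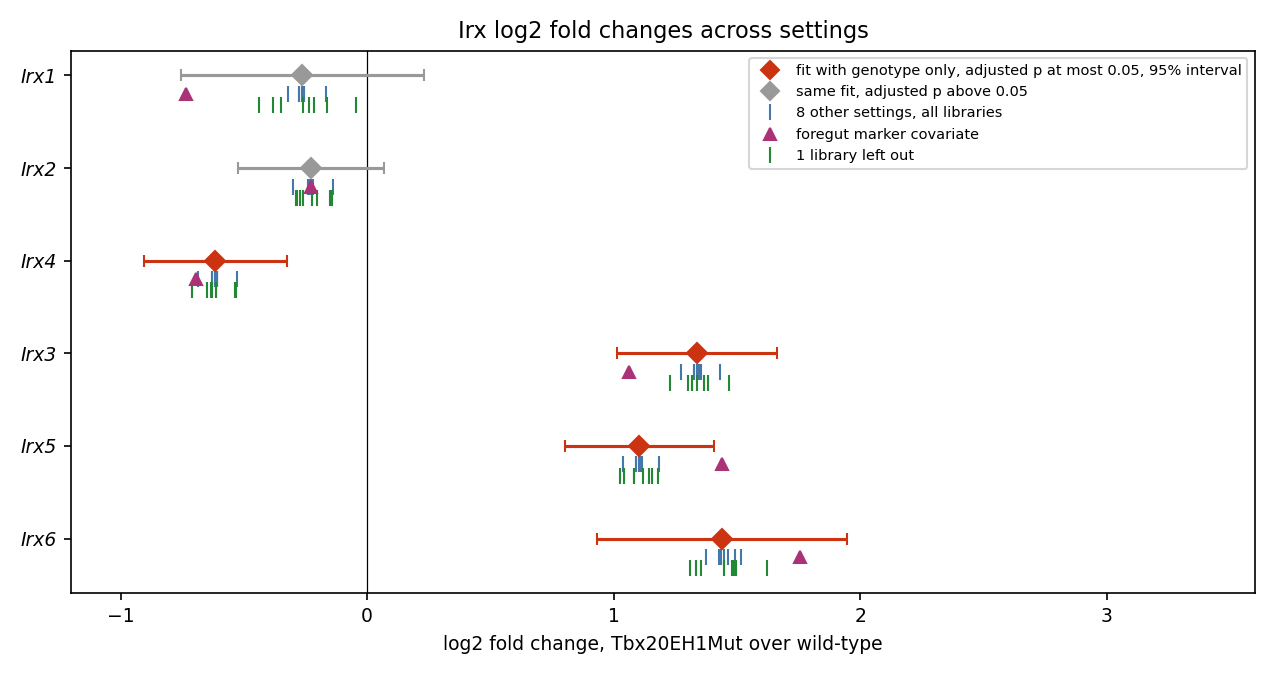
Log2 fold change of each Irx gene (horizontal axis, Tbx20EH1Mut over wild-type) with its 95% interval (diamonds, red where the adjusted p is at most 0.05), the values under 8 other settings (blue ticks), with foregut markers as a covariate (triangles) and with 1 library left out (green ticks). The IrxB genes stay between 1.03 and 1.76 and Irx4 between -0.71 and -0.53, and only Irx1 changes its call, with the covariate.

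The order of the members changed between the genotypes. To compare genes, CPM were divided by the exon length listed in the tables, which gives CPM per kb. In wild-type hearts Irx4 led with 42.2 ± 5.89 CPM per kb, clear of the others in all 4 libraries. Next came Irx2 (14.7 ± 1.59), Irx1 (14.0 ± 4.02), Irx3 (11.7 ± 2.21) and Irx5 (8.21 ± 1.21), and each neighbouring pair in this run overlapped in its ranges. Irx6 was last at 1.17 ± 0.342 CPM per kb, below all others. In Tbx20EH1Mut hearts Irx3 (29.6 ± 2.61) and Irx4 (27.5 ± 2.79) stood together at the top, Irx3 being the higher in 2 of 4 libraries. Irx5 came next (17.6 ± 1.99) and was clear of Irx4 above it and of Irx2 below it. Its range of 15.6 to 20.1 overlapped that of Irx1, 9.10 to 15.8. Irx2 (12.5 ± 1.82) and Irx1 (11.6 ± 2.91) overlapped, and Irx6 was again last (3.16 ± 0.505).

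Summed per length, the 6 genes reached overlapping totals in both genotypes while their makeup differed. The sum was 77.8, 106.5, 92.8 and 90.2 CPM per kb in wild-type replicates 1 to 4 and 103.3, 95.2, 106.1 and 103.6 in Tbx20EH1Mut replicates 1 to 4, and these ranges overlapped. IrxB made up between 20.7% and 26.0% of the sum in wild-type libraries and between 47.3% and 50.4% in mutant libraries. The mean share was 23.1 ± 2.36% and 49.3 ± 1.43% (SD, n = 4). The ratio of Irx4 to Irx3 went from 3.64 ± 0.210 in wild-type hearts to 0.942 ± 0.165 in Tbx20EH1Mut hearts. These shares restate the values of the single genes and were not tested.

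**Figure D3:**
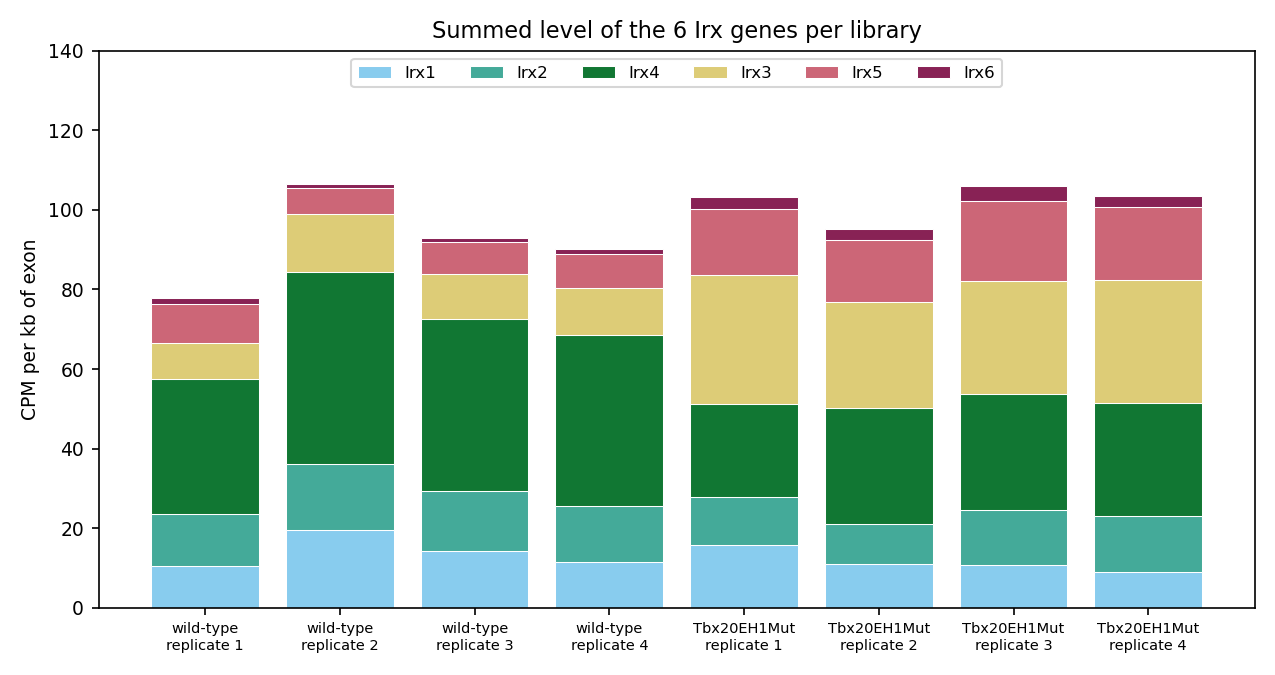
Level of each Irx gene in CPM per kb of exon, stacked per library (vertical axis from 0, 1 bar per library, IrxA genes below and IrxB genes above). The bars reach 77.8 to 106.5 in wild-type and 95.2 to 106.1 in Tbx20EH1Mut libraries, and the IrxB part grows from between 20.7% and 26.0% to between 47.3% and 50.4%.

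The other genes in and beside the clusters were examined next. Within IrxB lie 14 further listed genes, and 3 of them had enough counts to be tested. All 3 were called higher in Tbx20EH1Mut hearts, where 14.0% of all genes were. Gm36670, the scarcest, reached the filter on low counts through the mutant libraries, and the other 11 were too scarce to test, so the count of 3 is a description. Irx3os is an antisense long non-coding RNA (chr8:91800415-91807539, plus strand) that starts within Irx3, its start lying 1652 bases from that of Irx3. It had 0.971, 1.83, 1.55 and 1.77 CPM in wild-type libraries and 6.03, 4.09, 6.03 and 5.86 CPM in mutant libraries. The groups were well apart, with a rise of 1.84 on the log2 scale (adjusted p = 0.0011). Its exons share 124 bases with those of Irx3, and since the strand setting of the counting is not given in the sources used here, reads in these bases cannot be told apart. Irx3os held 1082 counts over the 8 libraries, and Irx3 held between 823 and 3461 in each.

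Crnde, a long non-coding RNA (chr8:92326033-92356120, minus strand), is transcribed away from Irx5, and their starts are 1505 bases apart. It was measured at 9.26, 6.46, 7.65 and 7.38 CPM in wild-type hearts and 22.8, 19.7, 24.8 and 27.0 CPM in Tbx20EH1Mut hearts. Crnde rose without overlap, from 7.68 ± 1.17 to 23.6 ± 3.07 CPM, by 1.62 on the log2 scale (adjusted p = 1.5e-04). The last was the predicted non-coding gene Gm36670 (chr8:91974095-91991947, minus strand) at 0.318 ± 0.146 and 0.942 ± 0.366 CPM (log2 fold change 1.54, adjusted p = 0.031). That call was lost without wild-type replicate 2 or 4 or Tbx20EH1Mut replicate 3 or 4, with adjusted p between 0.060 and 0.097. Gm36670 was also not tested under the filter of at least 10 counts in every library. The calls of Irx3os and Crnde held in all 17 other fits.

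Past the ends of IrxB, 18 tested genes have their start within 1000 kb of the cluster. Of these, 0 were called by edgeR, against the background of 29.3%, and 1 had an unadjusted p under 0.05. Apart from Chd9, Rbl2, Aktip, Rpgrip1l, Fto and Mmp2 they were scarce, with group means of at most 1.95 CPM (Gm3235 in mutant libraries). This limits the precision of their fold changes and what the test could call. DESeq2 called 1 of the 18 (6177 of 30273 genes in all, a wider set that includes scarcer genes left out by edgeR's filter). Limma-voom called 2 of the 18 (5215 of 17163). The fit with foregut markers as a covariate called 3 (7055 of 17163). Fto, an RNA demethylase gene whose introns are known to hold enhancers of Irx3 and Irx5, was at 104 ± 11.0 and 93.3 ± 11.8 CPM (log2 fold change -0.16, adjusted p = 0.35). Mmp2, the matrix metalloproteinase on the other side, was at 44.1 ± 7.71 and 38.8 ± 11.8 CPM (log2 fold change -0.18, adjusted p = 0.53). Rpgrip1l, a cilium transition zone gene, had a log2 fold change of -0.24 (adjusted p = 0.27) and Rbl2, a retinoblastoma family gene, one of -0.53 (adjusted p = 0.054). The median log2 fold change of the 18 genes was -0.07, and that of all genes tested was 0.00.

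At IrxA, the 2 tested genes inside the cluster were scarce and did not pass the test. The pseudogene Rpl9-ps4 was at 0.544 ± 0.177 and 0.737 ± 0.115 CPM (adjusted p = 0.40), and the non-coding Gm20554, next to Irx2, at 0.612 ± 0.434 and 0.946 ± 0.649 CPM (adjusted p = 0.48). Outside it, 4 of 16 tested genes were called, which is 25.0% and near the background of 29.3%. All 4 were lower, where 15.3% of all genes were called lower. Clptm1l, a membrane protein gene whose start is 344 kb from that of Irx4, went from 99.1 ± 9.92 to 59.4 ± 4.10 CPM and fell by 0.74 on the log2 scale (adjusted p = 0.0014). Slc12a7, a potassium-chloride cotransporter gene, fell by 0.96 on that scale, at 43.95 ± 12.1 and 22.6 ± 3.41 CPM (adjusted p = 0.0064). Trip13, an ATPase of the mitotic checkpoint, went from 65.7 ± 4.44 to 40.6 ± 2.79 CPM, and Exoc3, an exocyst subunit, from 59.0 ± 4.22 to 43.0 ± 2.92 CPM, with log2 fold changes of -0.69 and -0.46 (adjusted p = 0.0013 and 0.0089). Nearer to Irx4, Ndufs6, a subunit of respiratory complex I, and Mrpl36, a mitochondrial ribosomal protein gene, had log2 fold changes of 0.42 and -0.09 (adjusted p = 0.31 and 0.78). The processed pseudogene Gm10263, the tested gene next to Irx4, was at 1.09, 0.998, 1.37 and 1.53 CPM in wild-type and 2.02, 1.57, 6.22 and 2.07 CPM in mutant libraries. Its genotypes did not overlap, and its log2 fold change of 1.24 did not pass the test (adjusted p = 0.057).

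**Figure D4:**
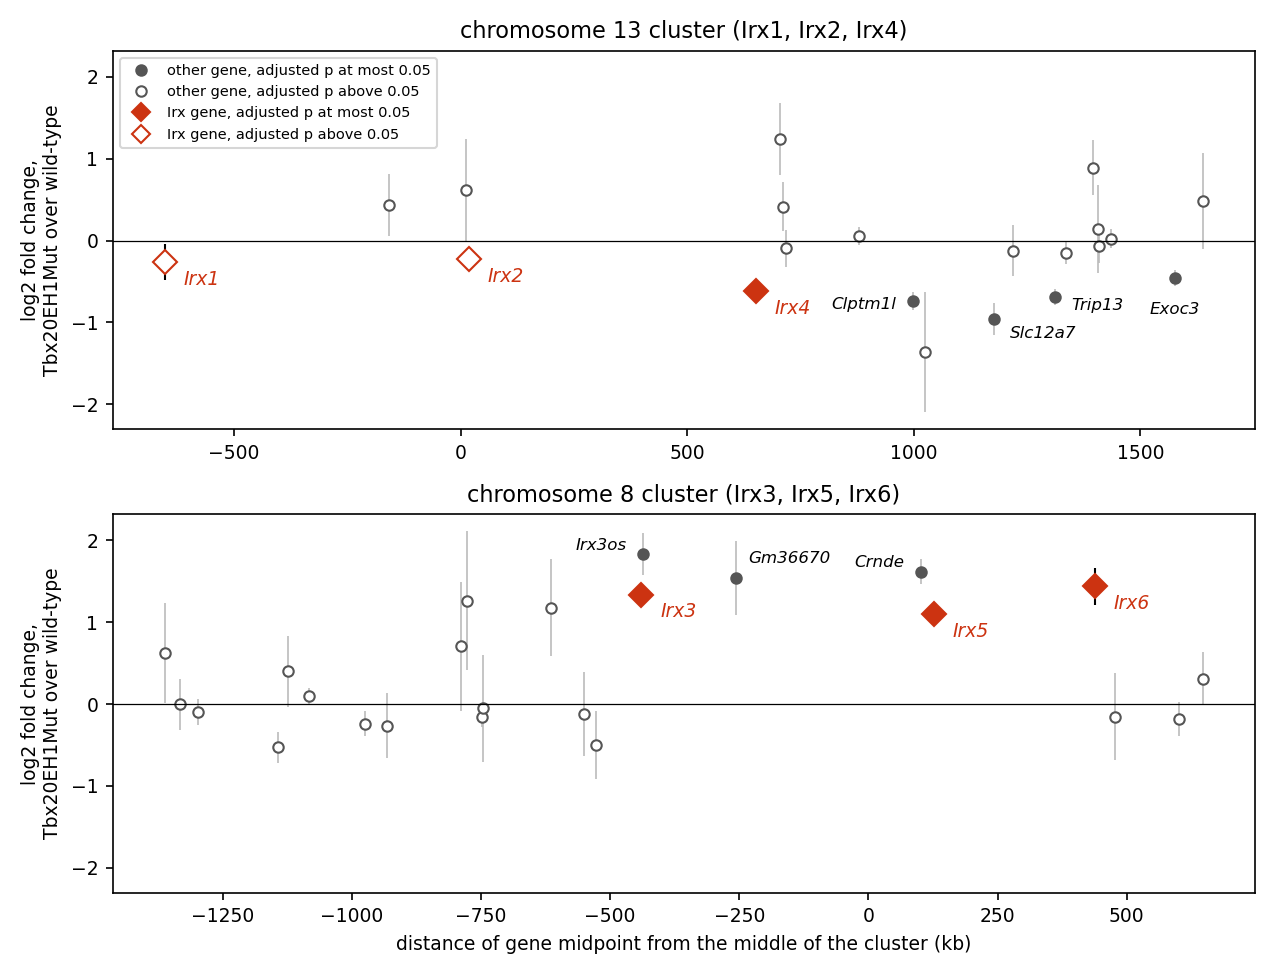
Log2 fold change (vertical axes, bars are 1 standard error) of the Irx genes (diamonds) and every other tested gene in or within 1000 kb of each cluster (circles), by distance of the gene's midpoint from the middle of the cluster in kb (horizontal axes). Filled symbols have an adjusted p of at most 0.05. All tested genes inside IrxB lie between 1.10 and 1.84, and 0 of the 18 tested genes outside it, many of them scarce, are filled.

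Promoter sequences were read from RefSeq (GRCm38.p6), as windows of 250 bases before to 50 after the RefSeq start. For Irx2, Irx4 and Crnde that start lies at or close to the start given in the count tables. The windows of Irx3 and Irx3os lie within the genes as the tables give them and were left out. The promoter set used held no window for Irx1, Irx5 or Irx6. Of the called members, only Irx4 could therefore be searched. The part before the annotated transcript is shown for Irx4, the called member of IrxA, and for Crnde, whose promoter faces Irx5, each 5′ to 3′ on the gene's strand. The Irx4 sequence is chr13:73260247-73260478 (plus strand, 68.1% G and C) and the Crnde sequence is chr8:92356121-92356370 (minus strand, 62.0% G and C).
Irx4: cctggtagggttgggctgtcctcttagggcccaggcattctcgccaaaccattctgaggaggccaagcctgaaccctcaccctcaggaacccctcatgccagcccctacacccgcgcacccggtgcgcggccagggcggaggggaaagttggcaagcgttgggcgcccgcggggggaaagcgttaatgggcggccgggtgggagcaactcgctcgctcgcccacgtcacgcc
Crnde: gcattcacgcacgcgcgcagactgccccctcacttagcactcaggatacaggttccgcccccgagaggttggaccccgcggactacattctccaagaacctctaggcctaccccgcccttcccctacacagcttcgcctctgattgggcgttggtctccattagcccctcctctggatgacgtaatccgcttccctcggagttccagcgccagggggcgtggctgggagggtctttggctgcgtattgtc

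Both strands of these 3 windows were searched for the T-box motif AGGTGTGA, for its core GGTGTG, which lies within the longer motif, for the Iroquois motif ACANNTGT and for the GATA motif AGATAA. No match was found in any of the 3, so no base is in capitals. Of the 32851 promoter windows of the same length in the table, 1.27% held the T-box motif, 19.0% its core, 7.38% the Iroquois motif and 11.2% the GATA motif. A missing match says only that these letters are not in these windows.

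Among libraries of a genotype, the members did not vary as 1 group. With genotype means removed, Pearson's r over the 8 libraries was 0.88 between Irx3 and its antisense neighbour Irx3os and 0.87 between Irx5 and its neighbour Crnde. Irx5 and Irx6 had r = 0.77, whereas Irx3 had r = -0.66 with Irx5 and -0.60 with Irx6. Across clusters, Irx1 had r = 0.74 with Irx3 and -0.78 with Irx5. Within IrxA the 3 values lay between 0.18 and 0.44. The points share libraries and their composition: the summed foregut marker level, handled the same way, had r = 0.64 with Irx3, 0.56 with Irx1 and -0.72 with Irx5. Wild-type replicate 2 was the highest of its genotype in these markers and in Irx1, Irx2, Irx3 and Irx4, and the lowest in Irx5. The marker level had r = 0.02 with Irx2 and 0.25 with Irx4.

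The 3 genes closest in pattern to each member were taken out of 10515 genes whose mean level reached 5 CPM. Genes with names of predicted genes or clones, such as Gm and Rik names, were left out of the 10515. Closeness was the root mean square difference of log2 levels centred on each gene's mean over the 8 libraries. Since these levels include the genotype difference, the closest genes change with genotype much as the member does. Irx4 was followed most closely by Unc45b, a chaperone of muscle myosin, at 0.055, then by Galnt1 and Pank1 (0.056 and 0.059). Irx5 was closest to Itm2b, to Hey1, a Notch target of the atrial myocardium, and to Rab24 (0.070, 0.086 and 0.087). For Irx3 they were Fbxl16, Rnf165 and Nampt, an enzyme of NAD synthesis (0.066, 0.145 and 0.161), and for Irx6 they were Cmtm8, Cebpb and Ifitm3 (0.128, 0.146 and 0.152). Irx1 was closest to Lin28b, Zfp426 and Lin28a (0.122, 0.133 and 0.141), the Lin28 proteins being blockers of let-7 processing. Irx2 was closest to Suco, Ireb2 and C1galt1 (0.065, 0.069 and 0.069).

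Genes known as targets, partners or upstream regulators of Irx proteins in heart, 19 in all, were each measured. Of these 14 were called, 4 higher and 10 lower, or 73.7% against the background of 29.3%, with a median log2 fold change of -0.29 against 0.00 for all genes. Without wild-type replicate 4, 8 of the 19 were called, as were 3001 of 17613 genes in all, and without Tbx20EH1Mut replicate 4 they were 8 of 19 and 3028 of 17547. Of the 9 targets, 1 was higher, 5 were lower and 3 did not pass. Gja5, the connexin of fast conduction that Irx3 is known to favour, fell from 58.4 ± 16.1 to 17.8 ± 5.32 CPM (log2 fold change -1.72). Gja1, the connexin that Irx3 is known to repress, was at 87.5 ± 11.5 and 83.1 ± 13.1 CPM (log2 fold change -0.08, adjusted p = 0.72). Kcnd2, the potassium channel gene repressed by Irx5, was scarce, at 1.30, 0.631, 0.817 and 1.24 CPM in wild-type libraries and 0.259, 0.133, 0.00 and 0.053 CPM in mutant libraries (adjusted p = 0.0099). It reached the filter on low counts through the wild-type libraries and was not tested under the filter of at least 10 counts in every library, so its place in the count of 5 is a description.

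Further targets included the natriuretic peptide gene Nppa, which fell by 1.67 on the log2 scale, and Hand1, a factor of the outer curvature and left ventricle, which fell by 2.51. Cxcl12, a chemokine gene that Irx5 is known to repress, rose by 0.92 on that scale, at 52.9 ± 10.9 and 100.3 ± 13.7 CPM (adjusted p = 0.0030). Bmp10, a growth factor of trabecular myocardium, was at 75.9 ± 7.48 and 70.6 ± 5.03 CPM (adjusted p = 0.47). Myh7, the slow myosin heavy chain, was at 4467 ± 1321 and 5159 ± 264.5 CPM (adjusted p = 0.43).

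All 5 partners were called, against the background of 29.3%, but the calls of all except Smyd1 were lost in some fits. Smyd1, a muscle methyltransferase known to act with Irx4, fell from 531.7 ± 37.6 to 323 ± 34.5 CPM (log2 fold change -0.72). The vitamin D receptor gene Vdr and its partner Rxra, which bind Irx4 in a repressor complex, had log2 fold changes of 1.17 (at 0.544 ± 0.159 and 1.23 ± 0.261 CPM) and -0.46. Gata3 and Trps1, zinc finger partners of Irx5, were higher by 0.80 and 0.54 on the log2 scale. Of the 5 genes upstream of Irx4, 3 were called lower, against 15.3% of all genes. Tbx5 fell from 102 ± 4.60 to 58.6 ± 6.94 CPM (log2 fold change -0.80), and Gata4 and Hand2 fell by 0.49 and 0.29. Nkx2-5 (log2 fold change -0.06, adjusted p = 0.80) and Hey2 (0.14, adjusted p = 0.44) did not pass the test. The calls of Vdr, Rxra, Gata3, Trps1, Gata4 and Hand2 depended on the libraries and the fit. Each was lost without wild-type replicate 4 and without Tbx20EH1Mut replicate 4, with adjusted p up to 0.129, and some also without other libraries. With every library kept, Vdr, Rxra, Trps1 and Hand2 were lost with the replicate number as a block (adjusted p between 0.061 and 0.106), and Vdr, Gata3, Trps1 and Hand2 with foregut markers as a covariate (0.058 to 0.226). Rxra, Gata4 and Hand2 were lost with upper-quartile scaling (0.055 to 0.154), and Gata3, Vdr and Hand2 also in 1 further fit each.

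Markers of other cells also differed between the libraries. Their counts stand against the same backgrounds, 14.0% of all genes called higher and 15.3% called lower, and several foregut and neural tube markers reached the filter on low counts mainly through the mutant libraries. The summed level of 9 foregut epithelium markers was 1.20 to 65.2 CPM in wild-type and 34.3 to 221 CPM in Tbx20EH1Mut libraries, with 3 of 9 called higher and none at 0. Foregut epithelium also expresses Irx genes. With the mean log2 level of these foregut markers in the model, the log2 fold changes were 1.06 for Irx3, 1.44 for Irx5 and 1.76 for Irx6. They were -0.69 for Irx4 and -0.23 for Irx2, and the calls of these 5 genes were unchanged. Neural tube markers, a tissue rich in Irx3 and Irx5, summed to 2.11 to 5.36 and 8.02 to 10.6 CPM (4 of 7 tested, 2 called higher, Dbx1 at 0). With genotype means removed, their summed level had r between -0.24 (Irx5) and 0.45 (Irx1) with the 6 Irx genes over the 8 libraries, and 0.44 with Irx3. No fit held these markers as a covariate, so their part in the genotype differences was not tested.

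All 6 erythroid markers were called lower, with sums of 1758 to 4596 and 319 to 1025 CPM, and within genotypes their summed level had r between -0.38 (Irx6) and 0.15 (Irx3) with the Irx genes. Cardiomyocyte markers summed to 25949 to 29035 and 23724 to 31018 CPM, with 1 of 9 called lower, which matches the labelled tissue. Of 4 ventricular markers, 2 were called higher (Myl2 and Myl3) and 1 lower (Hand1), and of 5 tested atrial and inflow markers 1 was higher and 1 lower. Endocardial and endothelial markers had 3 of 9 called higher, with sums of 654 to 844 and 848 to 928 CPM. Of 3 tested somite markers 1 was called higher, and of 3 tested neural crest markers edgeR called 0 (1 at an unadjusted p under 0.05, and 1 by DESeq2 and by limma-voom). The part of these markers in the genotype differences of the Irx genes was not tested.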

How the data were processed

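Whole hearts at E9.5 were sequenced from 4 wild-type and 4 Tbx20EH1Mut pools of 3 hearts, after poly-A selection. The authors deposited 1 table per library of raw counts, whole numbers of reads per Ensembl gene, not normalized. The submitters' processing notes name STAR 2.5.2b, Trimmomatic 0.36 and build GRCm38. The counting tool and strand setting are not given in the sources used here. Counts of all 49315 genes were filtered (filterByExpr), scaled (TMM) and fitted in R 4.3.3 with edgeR 4.0.16 (glmQLFit and glmQLFTest), with a term for genotype alone. Adjusted p-values are Benjamini-Hochberg values over the 17163 genes tested. Symbols came from a reference list of gene names matched by Ensembl identifier. In GENCODE M21 all 6 Irx genes had the same start and end as in the tables. Single values were compared with exact two-sided permutation tests over 70 arrangements. Total counts lay between 33359322 and 49523086 per library. Counting error bears most on Irx6, with 146 to 418 counts.

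The steps were tested on simulated counts. Replicate numbers did not pair the samples. No library was a near copy of another, since replicates differed beyond sampling noise. Alternatives were DESeq2 1.42.0, limma-voom (limma 3.58.1), 3 other scalings (RLE, upper-quartile and unscaled library size), 2 other count filters, a replicate block, a foregut marker covariate and leaving out each library. The Irx genes, the gene lists and the marker lists were chosen with earlier results of these data known. Genes named were all Irx genes, tested genes inside a cluster, called genes and genes with a stated role among the neighbours and lists, the 3 closest patterns per member, and Tbx20, apart from a few genes that are not reported here. Tables and plots were made with Python 3.11.15, numpy 2.4.6, pandas 2.3.3 and matplotlib 3.10.9.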

Additional observations from a re-analysis of the deposited data

Results flagged for a closer look

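Among 16 groups of 4 libraries (the 6 Irx genes, Irx3os and Crnde in each genotype), 2 held a library far from the other 3, where chance marks about 1 in 20 groups. Irx4 in Tbx20EH1Mut replicate 1 was 60.9 CPM against 74.0 to 76.1 in the others, a gap of 0.859 of the group's range. Irx3os in Tbx20EH1Mut replicate 2 was 4.09 CPM against 5.86 to 6.03 in the others, a gap of 0.909 of the range. Both libraries lay on their own group's side of the other genotype, and the log2 fold changes of both genes passed the test with each left out.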

How the results depend on the processing

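Irx3, Irx4, Irx5 and Irx6 kept their direction and their call in all 9 alternatives that used every library and in all 8 that left out 1. Leaving out 1 library gave log2 fold changes of 1.23 to 1.47 for Irx3, 1.03 to 1.18 for Irx5, 1.31 to 1.62 for Irx6 and -0.71 to -0.53 for Irx4. For Irx1 they ran from -0.44 to -0.05 and for Irx2 from -0.29 to -0.14. With the foregut marker covariate Irx1 passed (-0.73, adjusted p = 0.042), making 5 Irx genes called, and the cause was not tested. With a replicate block, which adds the replicate number to the model, 4 Irx genes and 3945 genes in all were called. The numbers had correlations of -0.25, 0.32, 0.04 and 0.06 between same-numbered libraries, so they gave no paired design.

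Of the neighbouring genes, 7 of 39 tested were called (5024 of 17163 over all genes), against 11 of 81 with DESeq2 (6177 of 30273), 15 of 39 with the foregut marker covariate (7055 of 17163) and between 6 and 12 when 1 library was left out. The cause of these shifts was not tested. Among partners, targets and upstream genes 14 were called, and between 8 and 13 without 1 library. Over all genes the count of 5024 moved to between 3001 (without wild-type replicate 4) and 6586 (without wild-type replicate 1) when 1 library was left out. Irx6, Kcnd2, Vdr, Irx3os and Gm36670 had few counts, which limits the precision of their fold changes.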

Other observations

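The TALE homeobox genes outside the Irx family, which include cofactors of Hox and T-box proteins, were measured beside it. All 12 were tested, and 6 were called, 5 higher and 1 lower, against the background of 29.3%, with a median log2 fold change of 0.31. Meis2 rose from 98.0 ± 14.5 to 205 ± 12.1 CPM, by 1.06 on the log2 scale (adjusted p = 4.0e-04). Pbx4 rose from 2.05 ± 0.527 to 5.19 ± 1.11 CPM and Meis3 from 29.4 ± 0.930 to 41.8 ± 5.10 CPM. Meis1 was at 79.8 ± 12.7 and 78.2 ± 7.99 CPM (adjusted p = 0.88), and Pknox1 and Mkx were among the others that did not pass. Tgif1 (log2 fold change 0.40) and Pknox2 (-0.66) were called, but both calls were lost without wild-type replicate 4 (adjusted p of 0.066 and 0.081) and without Tbx20EH1Mut replicate 4 (0.052 and 0.100), among other libraries. With every library kept, both were also lost with the replicate number as a block (0.062 and 0.051), Tgif1 with foregut markers as a covariate (0.209), with library size alone (0.082) and with the filter of at least 1 count (0.069), and Pknox2 with upper-quartile scaling (0.053). The block left 4 of the 12 called.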
